A study of Mus musculus with 2 samples.

Results

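The cells described here are CD8 T cells from mouse melanomas that held transcripts of both Tcf7 and Pdcd1. They were chosen from raw counts of unique molecular identifiers (UMIs, 1 per captured RNA molecule) in single-cell libraries. A barcode needed at least 300 detected genes, at most 10% mitochondrial UMIs, at least 1 UMI each of Cd3e, Cd8a, Cd8b1, Pdcd1 and Tcf7, and none of Cd4, Foxp3 or Csf1r. It could hold at most 2 UMIs of Mki67 and Top2a together, which mark dividing cells, and at most 2 of Gzmc and Gzmf together. The rule found 180 double-positive cells among 23731 deposited barcodes, of which 22490 passed the quality limits and 2434 passed the CD8 gate before Pdcd1 and Tcf7 were read. The choice used measured transcripts, so the presence of those genes in the cells is not a result.

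All animals were male mice aged 8 to 12 weeks that carried the tamoxifen-inducible Cre recombinase CreERT2 at the R26 locus on 1 chromosome. Mice called iKO here had both Trex1 alleles flanked by loxP sites (Trex1 fl/fl). Mice called control carried 1 such allele and 1 wild-type allele (Trex1 wt/fl), so they too could lose an allele after tamoxifen. Trex1 encodes an exonuclease that degrades cytosolic DNA. Every mouse received 1000 B16-F10 cells, a melanoma line, in the skin of both legs and 1 mg of tamoxifen daily for 3 days starting at day 5, and the tumours were harvested at day 14. R26 drives the recombinase in most cell types, so deletion was not restricted to T cells. Live CD45-positive cells were sorted from the digested tumours. Antibody hashtags marked 4 samples per genotype, and each genotype was run as 1 pool. Genotype and pool are the same split and cannot be told apart. The labels do not say whether a hashtagged sample is 1 mouse, so p-values measure the spread between these samples, which may be technical in part.

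T cells that meet tumour antigen for a long time take on an exhausted state with several inhibitory receptors, of which PD-1, the product of Pdcd1, is the best known. Within that state a progenitor subset keeps TCF-1, the transcription factor encoded by Tcf7, together with the surface receptor SLAMF6. Such cells can renew themselves and give rise to Tcf7-negative cells that carry TIM-3 (Havcr2), perforin and granzymes, and they are known as the cells that expand when PD-1 is blocked. Tcf7 is also high in naive and central memory T cells, which usually lack Pdcd1.

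Total UMIs per sample ran from 17111065 to 96457227. Kept cells of the iKO samples had medians of 13048 to 14677 UMIs, and kept cells of the control samples had medians of 6557 to 11931. Within the double-positive cells the medians overlapped, at 11959, 9614, 9518 and 7440 UMIs for iKO (samples 1 to 4, the order used throughout) and at 7214, 10536.5, 6908 and 5725 UMIs for control. No barcode was shared between samples of 1 pool, and samples of different pools shared 0 to 6. Trex1 had 2 counts in all kept cells, both in control sample 2, and 0 in double-positive cells of every sample, so that levels up to 4.26 CPM in the deepest and 100 CPM in the shallowest sample remain possible (3 counts of the total; CPM is the usual depth-scaled count). The targeted gene therefore could not be used to check the labels. Control sample 4 held 5 double-positive cells and stayed out of gene-level comparisons, which needed 10 per sample and so used 175 cells from 4 iKO and 3 control samples.

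Many cells lay close to the limits of the rule. Of the 180, 63 had exactly 1 UMI of Tcf7, 73 had exactly 1 of Pdcd1, 20 had 1 of each and 64 had at least 2 of both. The median was 2 UMIs for either gene, and the highest counts were 22 for Tcf7 and 17 for Pdcd1. Just outside, 17 cells failed only for 1 UMI of Csf1r, 13 for lack of Cd8a, 8 for lack of Cd8b1, 4 for 1 UMI of Cd4 and 4 for 1 of Foxp3. A further 61 otherwise matching cells had more than 2 UMIs of Mki67 and Top2a, 4 of them exactly 3, while 61 of the double-positive cells held 1 or 2. Scrublet gave 3 of the 180 a doublet score over 0.25.

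As a guide to stray RNA, UMIs of both genes were counted in Cd3e-negative cells. Whether some of these UMIs, of Pdcd1 above all, are transcript of those cells themselves was not tested. A Tcf7 UMI was present in 1.24% to 3.25% of Csf1r-positive, Cd3e-negative cells per sample, which are myeloid (median over all 14627 UMIs per cell), and in 2.70% of Cd79a-positive B cells overall (median 4459 UMIs). It was present in 4.96% to 31.6% of Pdcd1-positive gated CD8 T cells per sample, 10.2% overall (median 11625 UMIs). After every cell was thinned to 2000 UMIs the overall shares were 0.356%, 1.08% and 4.82%. The share in CD8 T cells was thus above that in myeloid cells in every sample, by the least in iKO samples 1 and 2 (4.96% against 1.24% and 6.89% against 1.29%). In iKO sample 1 it was close to the 4.00% of 75 B cells there, and after thinning the values were 2.36% and 2.67%. A Pdcd1 UMI was present in 3.13% of B cells overall and, by sample, in 6.16% to 6.90% of iKO and 2.03% to 3.25% of control myeloid cells. After thinning the myeloid shares overlapped, at 0.787% to 1.04% in iKO and 0.146% to 0.922% in control. Both genes were seen together in 0.205% of the myeloid cells. How many double-positive cells carry a stray UMI was not tested.

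Double-positive cells were a minority of the gated CD8 T cells in every sample, and their share did not separate the genotypes. They made up 4.08%, 5.87%, 18.8% and 13.8% of gated cells in the iKO samples, from 19, 67, 18 and 23 cells. The control values were 10.1%, 8.20%, 11.4% and 6.17%, from 23, 10, 15 and 5 cells. All 4 control values lay between the lower and the higher pair of iKO values. The means were 10.6% ± 6.87 and 8.96% ± 2.27 (SD, n = 4 each; 2-sided exact permutation p = 0.686, where 0.0286 is the smallest this design allows). Without iKO sample 3 the difference of 1.66 percentage points became -1.05. Exact 95% binomial intervals, which cover counting error only, ran from 2.47% to 6.29% in iKO sample 1 and from 11.5% to 28.0% in iKO sample 3, so the iKO samples differed beyond counting error. Of all kept cells they were 0.986% ± 0.377 in iKO tumours and 0.622% ± 0.399 in control tumours (n = 4 each), with an exact permutation p of 0.286.

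**Figure D1:**
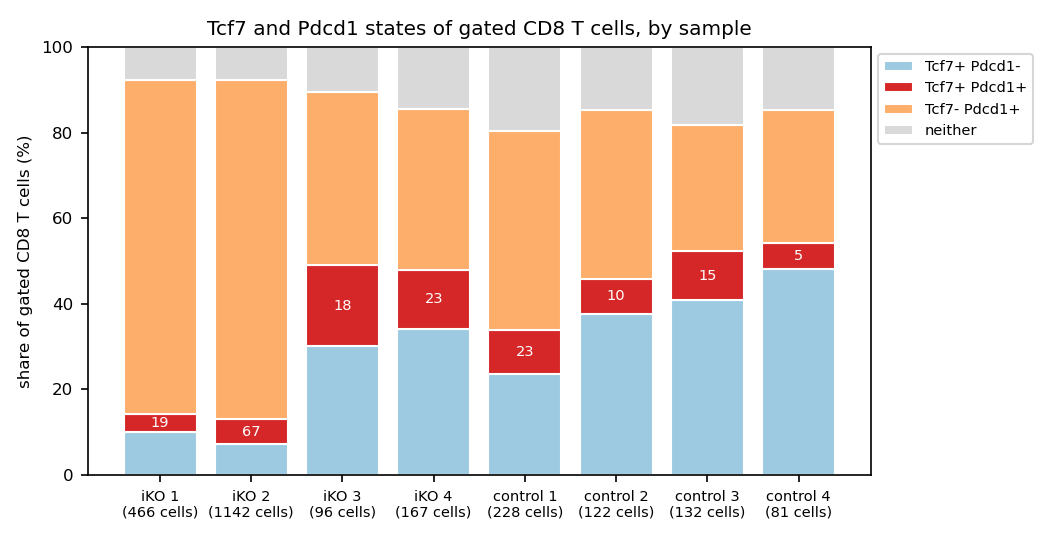
Share of gated CD8 T cells (%) in each of 4 states defined by at least 1 UMI of Tcf7 and Pdcd1, for the 8 hashtagged samples; white numbers are double-positive cells and the gated total stands under each bar. In iKO samples 1 and 2 the Tcf7-negative Pdcd1-positive state made up 78.1% and 79.3%, and in the other 6 samples 29.5% to 46.5%.

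None of the other 3 states differed between genotypes after adjustment over the 4 states. Tcf7-negative Pdcd1-positive cells, 1589 in all, made up 58.9% ± 22.8 of gated cells in iKO, and for control the value was 36.6% ± 7.92 (p = 0.143 by exact permutation, adjusted 0.190). Tcf7-positive Pdcd1-negative cells, 408 in all, made up 20.4% ± 13.7 and 37.6% ± 10.3 (p = 0.114 by the same exact permutation test, adjusted 0.190). Cells with neither transcript made up 10.1% ± 3.15 in iKO and 16.9% ± 2.49 in control, with ranges of 7.71% to 14.4% and 14.8% to 19.7% that did not overlap (exact permutation p = 0.0286, the smallest possible, adjusted 0.114). Among Tcf7-positive cells, Pdcd1 was seen in 28.8%, 45.0%, 38.3% and 28.7% per iKO sample and in 29.9%, 17.9%, 21.7% and 11.4% per control sample. This measure was added after the data were seen. Control sample 1 lay above 2 of the iKO samples, and the means of 35.2% ± 7.91 and 20.2% ± 7.73 gave an exact permutation p of 0.0857. The exact permutation p was 0.143 after thinning (17.7% against 6.70%), 0.0286 without likely doublets or with 2 UMIs of each gene, and 0.0571 to 0.171 without 1 sample. A Pdcd1 UMI was also seen in more myeloid cells of iKO samples, 6.16% to 6.90% against 2.03% to 3.25% in control. After thinning these shares overlapped, at 0.787% to 1.04% and 0.146% to 0.922%. The part of stray Pdcd1 UMIs in the difference among Tcf7-positive cells was not tested.

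Single genes of the homing and effector programmes were seen in a minority or about an even share of the double-positive cells. Ccr7, which directs T cells to lymph nodes, was seen in 29.4% of them, against 53.9% of Tcf7-positive Pdcd1-negative and 7.6% of Tcf7-negative Pdcd1-positive cells. Thinned to 2000 UMIs per cell its shares were 12.8%, 23.1% and 2.8%. Gzmb, a granzyme, was seen in 52.2%, 39.0% and 90.2% in the same order, and in 29.4%, 20.1% and 72.2% after thinning. Havcr2 was seen in 15.6%, 4.9% and 73.9%, and in 3.3%, 2.0% and 30.7% after thinning. These shares pool the cells of all samples, and iKO sample 2 supplied 67 of the 180 double-positive cells. For all 3 genes the pooled double-positive share lay between those of the neighbouring states. By sample this order did not always hold. After thinning, Gzmb or Havcr2 was seen in 21.7% of double-positive and 29.8% of Tcf7-positive Pdcd1-negative cells in iKO sample 4. The values were 6.67% and 7.55% in control sample 3, and 0% and 2.56% in control sample 4. The stray share of the 3 genes in cells that lack them was not measured.

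Slamf6, the surface receptor that marks progenitor-exhausted cells and that the rule did not use, was seen in 53.9% of the double-positive cells. It was seen in 6.4% of Tcf7-negative Pdcd1-positive cells and 36.8% of Tcf7-positive Pdcd1-negative cells. Thinned to 2000 UMIs the shares were 23.9%, 1.5% and 12.8% in the same order. By sample the share in double-positive cells ran from 47.4% to 66.7%. With the cells of all samples pooled, Slamf6 was thus seen most often in the double-positive cells. Cxcr5, which marks this state in chronic infection, was not: it was seen in 4.4% of double-positive, 0.4% of Tcf7-negative Pdcd1-positive and 7.1% of Tcf7-positive Pdcd1-negative cells. Id3, another gene of the progenitor state, was seen in 11.1%, 1.1% and 8.6% in the same order, and in 2.2%, 0.4% and 2.9% after thinning.

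Counts were then summed per sample over the cells of each state and compared within samples, with the sample as a block in edgeR's quasi-likelihood test. Against Tcf7-positive Pdcd1-negative cells, the double-positive cells had more transcript of inhibitory receptors and exhaustion regulators and less of genes for naive state and recirculation. At an adjusted p below 0.05, 409 of 3924 genes (10.4%) differed, 195 higher (4.97%) and 214 lower (5.45%) in double-positive cells. Irrespective of the test, 4.51% of genes were higher and 5.84% lower in each of the 7 samples. Of the terminal-exhausted list, 13 of 13 tested genes were higher, with a median log2 fold change of 1.88, where the median over all genes was 0.00. Of the naive and recirculating list, 12 of 14 were lower, with a median of -1.21. All levels set beside each other for the 3 states are CPM of summed counts over each profile's own total, as the lowest, the median and the highest of 7 samples.

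Lag3, an inhibitory receptor that binds MHC class II, had 83.9, 104 and 215 CPM in double-positive cells and 0, 11.0 and 20.2 CPM in Tcf7-positive Pdcd1-negative cells. The 2 ranges did not overlap, and the log2 fold change was 3.19 ± 0.24 (SE; edgeR adjusted p = 8.07e-09). Tox, the transcription factor that fixes the exhausted state, had 101, 164 and 208 CPM against 22.2, 37.9 and 53.6 CPM. It too was higher in 7 of 7 samples, by 1.97 ± 0.17 on the log2 scale (edgeR adjusted p = 2.86e-08). Ctla4, an inhibitory receptor for B7 ligands, was higher by 2.09 ± 0.18, with 79.3, 131 and 199 CPM against 10.4, 25.8 and 43.7 CPM. Its ranges did not overlap either. Nr4a2, a nuclear receptor induced by antigen receptor signalling, was higher by 2.16 ± 0.22 in 7 of 7 samples. Tnfrsf9, which encodes the costimulator 4-1BB, was higher by 2.02 ± 0.34, and Bhlhe40, a transcription factor, by 1.88 ± 0.19.

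Among the progenitor-exhausted list, genes moved both ways against Tcf7-positive Pdcd1-negative cells: 4 of 13 tested were higher and 4 lower. Xcl1, a chemokine that attracts cross-presenting dendritic cells, had 110, 308 and 648 CPM against 28.6, 51.5 and 90.4 CPM, without overlap (log2 fold change 2.25 ± 0.21, edgeR adjusted p = 9.05e-08). Slamf6 had 99.8, 135 and 187 CPM against 53.8, 70.8 and 107 CPM, higher within each of 7 samples by 0.78 ± 0.16 although the ranges overlapped slightly. Icos and Gzmk were the other higher members. Lef1, a partner factor of TCF-1, Il7r, the interleukin 7 receptor chain, Bach2, a repressor of effector genes, and Tnfsf8 were the lower ones.

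Genes of naive and recirculating T cells were lower in double-positive cells but not absent. S1pr1, the exit receptor for lymph and blood, had 34.5, 73.9 and 145 CPM against 109, 168 and 193 CPM and was lower within each of 7 samples (log2 fold change -1.22 ± 0.18, edgeR adjusted p = 3.69e-05). Satb1, a chromatin organiser of T cells, fell by 1.62 and Klf2, which keeps S1pr1 on, fell by 1.55, both in 7 of 7 samples. Lef1 had 38.4, 88.3 and 121 CPM against 151, 182 and 278 CPM and fell by 1.47 ± 0.17. Igfbp4 fell by 2.93 on 11 counts in all double-positive cells. Gzma, a granzyme, fell by 2.66, from 12.2, 134 and 746 CPM to 8.64, 16.8 and 69.9 CPM. In control samples alone 7 of the named genes lost the call, namely Igfbp4 (edgeR adjusted p = 0.287), Nr4a2 (0.0801), Nsg2 (0.0738), Lef1 (0.0586), Il4ra (0.0573), Gzma (0.0513) and Tnfrsf9 (0.0513). The type I interferon list had few calls here, with 1 of 37 tested genes higher, Ifi27l2a, and 1 lower, Ly6c2. Of the 37, 32 lay below 0 and 5 above, with a median log2 fold change of -0.23.

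Set against Tcf7-negative Pdcd1-positive cells, the larger population with Pdcd1, the double-positive cells had more of the naive and progenitor genes and less of the cytotoxic and terminal-exhausted ones. Here 641 of 4640 genes were called (13.8%), 361 higher (7.78%) and 280 lower (6.03%) in double-positive cells, while 5.86% of genes were higher and 5.88% lower in each of the 7 samples. This comparison uses the same double-positive profiles as the preceding one, so the 2 are not independent. All 11 tested naive and recirculating genes were higher, with a median log2 fold change of 2.34, where the median over all genes was 0.02. Of the terminal-exhausted list 15 of 18 were lower and none higher, with a median of -1.19. Progenitor-exhausted genes were higher in 5 of 12 cases (Slamf6, Cxcr3, Lef1, Il7r and Icos) and none was lower. Of the type I interferon list, 12 of 39 tested genes were higher and none lower. Of these 39, 36 lay above 0, and the median was 0.38.

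Slamf6 had 99.8, 135 and 187 CPM in double-positive cells and 3.24, 17.6 and 68.1 CPM in Tcf7-negative Pdcd1-positive cells, with no overlap (log2 fold change 3.63 ± 0.34, edgeR adjusted p = 2.33e-07). Il7r had 182, 242 and 794 CPM against 25.0, 34.7 and 121 CPM and was higher by 2.77 ± 0.17 in 7 of 7 samples. For both genes the lowest double-positive sample lay above the highest Tcf7-negative one. Dapl1, whose transcript marks quiescent Tcf7-positive T cells, was higher by 5.19 ± 0.43, S1pr1 by 3.65 ± 0.34, and Cxcr3, a chemokine receptor for CXCL9 and CXCL10, by 1.98 ± 0.30. Cmah, Emb, Tespa1 and Sidt1 were also among the largest increases, with log2 fold changes of 4.13, 2.89, 2.36 and 2.35.

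Effector genes were lower in double-positive cells in every sample. Havcr2, which encodes TIM-3, had 9.96, 25.95 and 57.6 CPM against 86.5, 212 and 262 CPM, with no overlap (log2 fold change -2.36 ± 0.22, edgeR adjusted p = 2.33e-07). Prf1, the pore-forming perforin, had 25.9, 72.7 and 177 CPM against 198, 359 and 1199 CPM and fell by 2.46 ± 0.14. Ifng had 39.9, 94.99 and 161 CPM against 224, 438 and 817 CPM and fell by 2.31 ± 0.16, again without overlap. Gzmb, a granzyme, fell by 1.95 ± 0.19 within each of 7 samples, while its ranges of 43.2 to 491 CPM and 243 to 2855 CPM overlapped. The chemokine Ccl3 fell by 2.75, Ccl4 fell by 2.27 and Ccl1 fell by 3.88. Ccl1 was at 0 CPM in the median double-positive sample and at 458 CPM in the median Tcf7-negative one. Cdkn2a, which encodes cell cycle inhibitors, fell by 3.18 on 8 counts in the double-positive cells. Cytotoxic genes as a list were less uniform, with 6 of 17 lower, none higher and a median of -0.42.

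**Figure D2:**
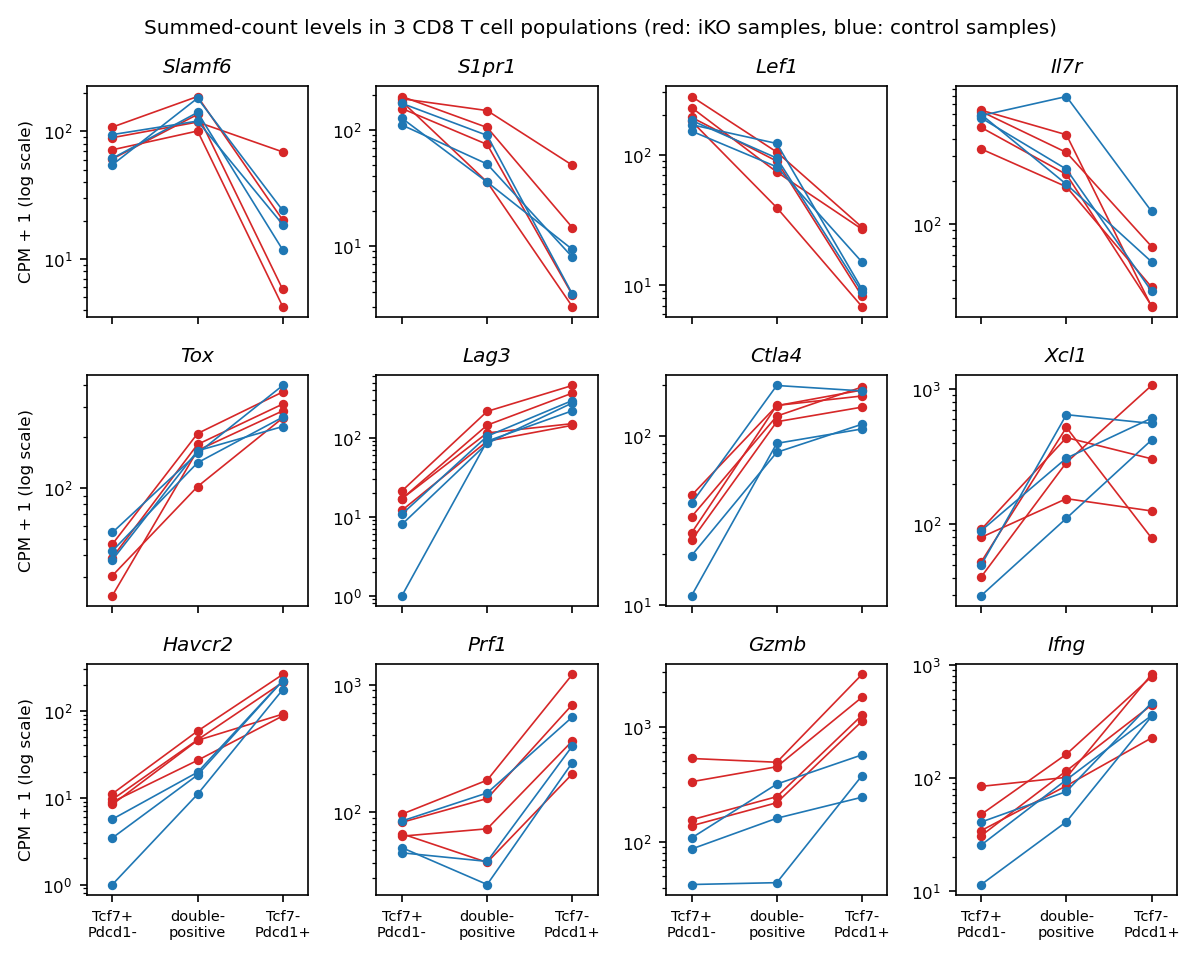
Levels of 12 genes (CPM of summed counts plus 1, log scale) in Tcf7-positive Pdcd1-negative, double-positive and Tcf7-negative Pdcd1-positive cells, with 1 line per sample (4 iKO in red, 3 control in blue). Slamf6 was highest in double-positive cells in 7 of 7 samples, S1pr1 fell and Lag3 rose from left to right in each sample, and Havcr2, Prf1 and Ifng were highest in Tcf7-negative cells in each.

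Seen over the 3 states, most of these genes were intermediate in the double-positive cells. Tox had a median of 37.9 CPM in Tcf7-positive Pdcd1-negative cells, 164 CPM in double-positive cells and 282 CPM in Tcf7-negative Pdcd1-positive cells, and it was lower in double-positive than in Tcf7-negative cells by 0.88 ± 0.12 on the log2 scale, in 7 of 7 samples. Lag3 stood at 11.0, 104 and 275 CPM in the same order. Slamf6 was different, at 70.8, 135 and 17.6 CPM, and passed the test against both neighbours. Itgb1, the beta-1 integrin chain and the only such gene of the trafficking list, was above both, at 231, 488 and 258 CPM, higher by 1.17 ± 0.18 and 1.32 ± 0.17. Icos, a costimulatory receptor, was above both at 64.7, 132 and 96.4 CPM, higher by 0.84 ± 0.17 and 0.49 ± 0.15. Ikzf2, which encodes the factor Helios, was above both as well (69.9, 269 and 126 CPM), higher in 6 of 7 samples each time. Ctla4 and Xcl1 stood above Tcf7-positive Pdcd1-negative cells but did not pass the test against Tcf7-negative ones, with log2 differences of -0.28 ± 0.13 and -0.10 ± 0.32.

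Markers of other cell types were present in these summed profiles. The summed level of 10 monocyte and macrophage markers was 290.7 to 615 CPM in iKO and 319 to 2308 CPM in control double-positive cells, with the highest value in control sample 1. It was 245 to 428 CPM in Tcf7-negative Pdcd1-positive cells and 239 to 531 CPM in Tcf7-positive Pdcd1-negative cells. Apoe, a macrophage marker, was called higher in double-positive cells against either state. C1qb, another macrophage marker, was called higher against Tcf7-positive Pdcd1-negative cells, and Ighm, a B cell marker, against Tcf7-negative Pdcd1-positive cells. H2-Ab1, of the dendritic cell markers, and Gzma, of the natural killer cell markers, were called lower against Tcf7-positive Pdcd1-negative cells. Of 5 CD4 and regulatory T cell markers the sum was 166 to 658 CPM in double-positive cells, and it includes Ikzf2. Melanoma markers summed to 5.6 to 20.8 CPM in iKO and 0 CPM in control double-positive cells. In control samples 1 to 3, 3 counts were worth 14.0, 29.9 and 25.9 CPM, so sums this low could not be compared between genotypes. The part of these transcripts in the comparisons of states was not tested.

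Double-positive cells of iKO tumours had more transcript of interferon-stimulated genes than those of control tumours, and genes of the progenitor and exhausted programmes did not pass the test, apart from Nr4a2. The stray level of interferon-stimulated transcripts was not measured, and the part of stray RNA from other cells in this difference was not tested. Over 7 profiles 28 of 2855 genes (0.981%) passed an adjusted p of 0.05 in edgeR, 21 higher (0.736%) and 7 lower (0.245%) in iKO. Of the 33 tested type I interferon response genes, 15 were called higher and none lower, all 33 lay above 0, and the median log2 fold change was 1.59 where that over all genes was -0.01. In 27 of the 33 every iKO sample lay above every control sample, which held for 4.34% of all genes. The opposite arrangement held for 4.27% of all genes and none of the 33. The list was chosen with earlier results of these data known, so its counts are a description and not an independent test. It has 51 genes, of which 18 were not tested, and with no low-count filter 31 of 50 were higher and none lower. The call counts rested on single samples: without iKO sample 2 the list had 3 of 28 genes called, without control sample 1 it had 5 of 37 and without control sample 2 it had 2 of 38, while its median stayed between 1.21 and 1.77. Where 2 UMIs of both Pdcd1 and Tcf7 were required, with 5 cells per sample, 4 iKO samples and 1 control sample remained, and 7 of 32 list genes were called higher with a median of 1.41. That alternative was chosen after the data were seen, and its spread comes from the iKO samples alone, with the 1 control sample assumed to vary like them. Values below are CPM with edgeR's TMM scaling.

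The genes fall into several arms of the interferon response. Isg15, a ubiquitin-like protein attached to other proteins, had 190, 527, 217 and 281 CPM in the iKO tumours and 55.9, 20.9 and 43.6 CPM in the control tumours. No iKO sample came near the control range, and the log2 fold change was 2.84 ± 0.43 (edgeR adjusted p = 0.00326). Usp18, the protease that removes Isg15 and dampens receptor signalling, had 91.2, 144, 51.3 and 81.7 CPM against 18.6, 0 and 8.72 CPM. Its groups did not overlap, with a log2 fold change of 3.07 ± 0.57 (edgeR adjusted p = 0.0102). Herc6, the ligase that attaches Isg15 in mice, was higher by 1.95 ± 0.47.

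Ifit1, which binds foreign RNA ends, had 51.1, 214, 68.5 and 76.6 CPM in iKO and 4.66, 0 and 8.72 CPM in control. The control values are 2 counts in all, so the ratio of the pooled levels, 31.1, has a 95% counting interval of 8.50 to 259. Ifit3 had 128, 282, 114 and 138 CPM against 18.6, 0 and 61.0 CPM, without overlap (log2 fold change 2.75 ± 0.53, edgeR adjusted p = 0.0118). Irf7, the transcription factor that amplifies interferon production, had 83.9, 207, 108 and 153 CPM against 32.6, 20.9 and 52.3 CPM. It was higher by 2.03 ± 0.42, again with no overlap. Zbp1, a sensor of Z-form nucleic acid, was higher by 1.49 ± 0.31, and Ifi206 and Ifi213, of the interferon-inducible p200 family, by 1.75 ± 0.37 and 2.02 ± 0.44. The p200 genes are near-identical neighbours, and the division of reads between them is uncertain.

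Ly6c2, a surface protein of memory and effector CD8 T cells, gave the smallest adjusted p. It had 2148, 2161, 981 and 1527 CPM in iKO and 471, 438 and 314 CPM in control, and the log2 fold change was 2.06 ± 0.25 (edgeR adjusted p = 3.16e-04). The lowest iKO sample was above the highest control sample. Ly6a, a related surface protein, was higher by 1.33 ± 0.25, Bst2, the tetherin that holds budding virus, by 1.81 ± 0.37, and Ifi27l2a by 1.61 ± 0.34. Ly6c2 and Ly6a belong to a family of similar genes whose reads can be split between copies. Cxcl10, a chemokine that binds Cxcr3, had 36.5, 155, 240 and 107 CPM against 9.32, 0 and 26.2 CPM, on 5 counts in control. Rnf213, Slfn1, Phf11b, Plac8, Ms4a4c and Ifi214 were also higher, by 1.66 to 2.00 on the log2 scale. Isg15 and Ly6c2 kept the call in every alternative fitted, 2 of which held 1 control sample (2 UMIs of both genes, and at least 20 cells). Ifit1, Ifit3, Irf7 and Cxcl10 lost it without control sample 1 and without control sample 2, Irf7 also without iKO sample 2, and Usp18 without control sample 2. Rnf213 lost it without control sample 1. With the replicate block Ifit3 and Irf7 lost the call, and with 2 UMIs of both genes Usp18, Irf7 and Rnf213 did. Over these losses edgeR adjusted p ran from 0.0531 to 0.297. Herc6 and Ifi213 lost the call in 8 and 6 of the alternatives, with edgeR or DESeq2 adjusted p from 0.0531 to 0.480.

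Interferon response elements repeat the letters GAAA, and promoters of several called genes are shown because they hold that repeat close to the start site. The motif searched was GAAA, any 2 bases (NN), then GAAA again, read on both strands with overlapping matches allowed, in RefSeq promoter windows of 300 bases (250 before to 50 after the start; build GRCm38.p6, an earlier build than the GRCm39 named for the files). It lay in 3.44% of 32851 windows. Of the 21 genes called higher in iKO, 17 were in the table and 9 of them held it, against 121 of 2301 tested genes (5.26%). The last 120 bases before each start are printed 5′ to 3′ on the gene's strand, with the motif or its reverse complement in capitals.
Isg15, chr4:156200819-156200938, minus strand: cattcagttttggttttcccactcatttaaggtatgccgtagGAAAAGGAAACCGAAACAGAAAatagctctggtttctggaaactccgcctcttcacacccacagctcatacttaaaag
Ifit1, chr19:34640769-34640888, plus strand: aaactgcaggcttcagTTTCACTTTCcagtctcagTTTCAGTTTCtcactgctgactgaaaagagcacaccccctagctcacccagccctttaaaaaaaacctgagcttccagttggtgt
Ifi206, chr1:173491319-173491438, minus strand: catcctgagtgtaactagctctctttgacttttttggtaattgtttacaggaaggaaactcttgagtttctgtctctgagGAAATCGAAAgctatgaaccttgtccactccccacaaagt
Ifi213, chr1:173599273-173599392, minus strand: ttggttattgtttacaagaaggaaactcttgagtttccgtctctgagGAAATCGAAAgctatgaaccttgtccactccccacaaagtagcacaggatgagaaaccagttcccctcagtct
Isg15 held 3 overlapping matches, the first starting at position -78 from the start site, Ifit1 held 2 on the opposite strand at -104 and -85, and Ifi206 and Ifi213 held 1 each at -40 and -73. The windows of Irf7, Ly6c2, Herc6, Slfn1 and Rnf213 held none. A match describes these letters only.

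**Figure D3:**
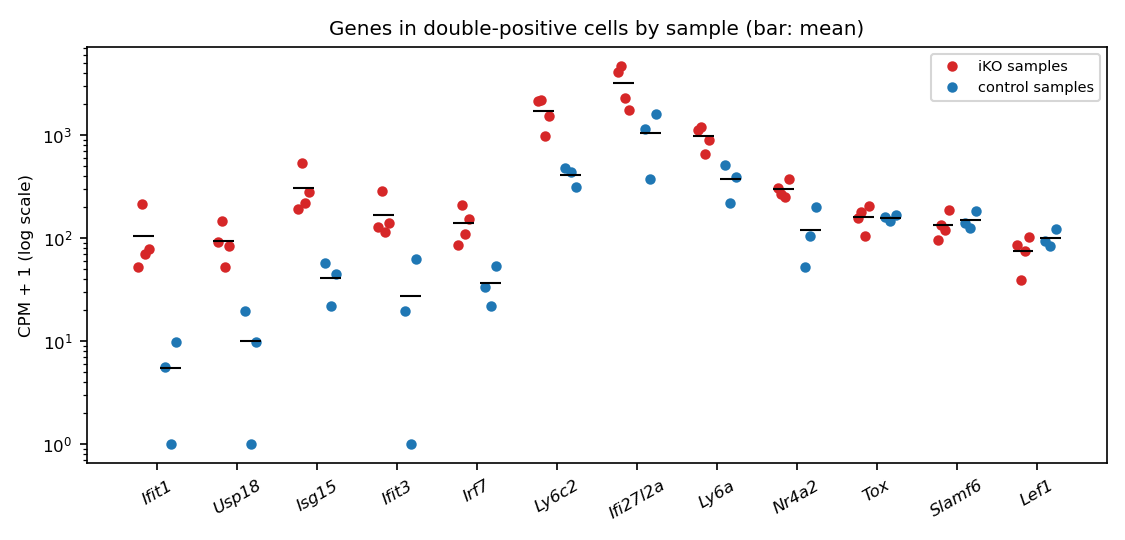
Levels in double-positive cells (CPM plus 1, log scale) of 9 genes called higher in iKO and of Tox, Slamf6 and Lef1, which were not called; each point is a sample (4 iKO, 3 control) and the bar is the mean. In the 9 called genes no iKO sample lies within the control range, and for Tox, Slamf6 and Lef1 the groups overlap.

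The interferon gamma list did not yield a call: 0 of 20 tested genes passed in edgeR, 19 lay above 0, and the median log2 fold change was 0.37. In 5 of the 20 every iKO sample lay above every control sample, against 4.34% of all genes. Iigp1, a guanosine triphosphatase, had 1.90 ± 0.63 (adjusted p = 0.286) and Gbp9, of the guanylate-binding family, had 1.54 ± 0.48 (adjusted p = 0.211). Irf1 had 0.14 ± 0.31. Over all genes 236 had an unadjusted p under 0.05.

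None of the 12 tested progenitor-exhausted genes and none of the 12 naive and recirculating genes passed in edgeR, with medians of 0.12 and -0.39. Slamf6 differed by -0.17 ± 0.27, Tox by 0.05 ± 0.26, Lef1 by -0.55 ± 0.36 and Il7r by -0.57 ± 0.37 (iKO minus control, log2). With errors of this size, a missed threshold does not show equal levels. Of 14 terminal-exhausted genes, Nr4a2 alone passed. Its levels were 306, 264, 251 and 373 CPM in iKO and 51.3, 104 and 201 CPM in control, without overlap, a log2 fold change of 1.43 ± 0.33 (edgeR adjusted p = 0.0397). Gzmb differed by 0.88 ± 0.38 (adjusted p = 0.532), and 0 of 15 cytotoxic genes passed.

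Of the 7 genes lower in iKO, 5 are known from other cell types. S100a8 and S100a9, which neutrophils express at very high level, had 39.9 to 106 and 68.5 to 148 CPM in iKO samples. In control samples 1 to 3 S100a8 had 853, 115 and 201 CPM and S100a9 had 946, 198 and 87.2 CPM, so control sample 1 was several times above the others. S100a8 fell by 2.57 ± 0.45 (edgeR adjusted p = 0.0102), and without control sample 1, without likely doublets, with 2 UMIs of both genes or with DESeq2 it no longer passed. Il1b, an inflammatory cytokine of myeloid cells, Apoe and Igkc, an immunoglobulin chain of B cells, were the others, with Lars2 and Rps10 beside them. Lars2 lost the call in 11 of the alternatives, more than any other named gene, with edgeR or DESeq2 adjusted p from 0.0502 to 0.315. Neutrophil markers, 6 of 6 detected, summed to 134 to 239 CPM in iKO and 309 to 1847 CPM in control double-positive cells, without overlap. They differed the same way in Tcf7-positive Pdcd1-negative cells, at 121 to 156 and 322 to 387 CPM. In Tcf7-negative Pdcd1-positive cells the sums overlapped, at 127 to 439 CPM in iKO and 333 to 1338 CPM in control. Their part in the result was not tested. Siglech, Pax5 and Ncr1, markers of plasmacytoid dendritic, B and natural killer cells, were at 0 in double-positive cells. Of the same lists, 7 of 8 dendritic, 5 of 6 B and 5 of 6 natural killer cell markers were detected. Dendritic markers summed to 168 to 1029 CPM in iKO and 389 to 976 CPM in control double-positive cells. B cell markers summed to 80.6 to 156 and 69.7 to 117 CPM, and natural killer markers to 186 to 257 and 155 to 462 CPM.

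**Figure D4:**
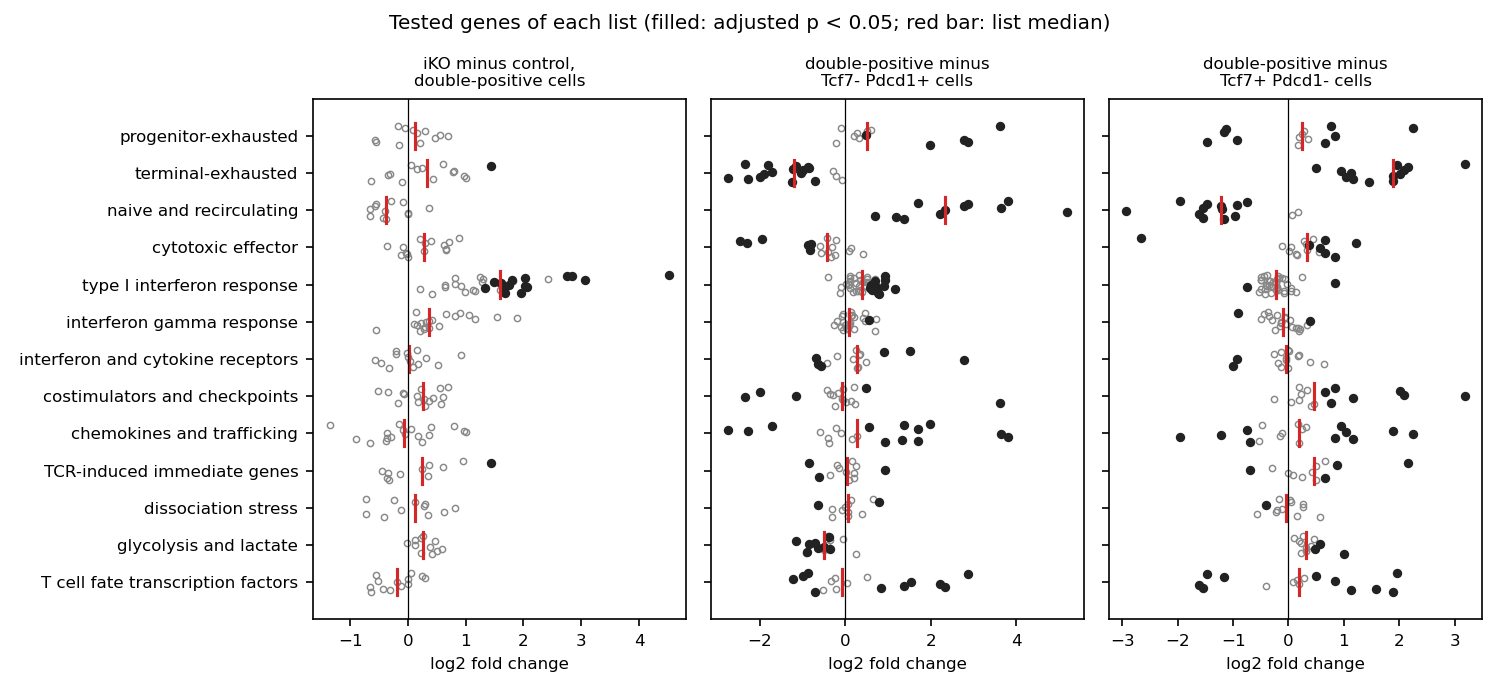
Log2 fold change of each tested gene in 13 gene lists for iKO minus control in double-positive cells and for double-positive cells minus each neighbouring state; filled points passed edgeR's adjusted p of 0.05, open points did not, and the red bar is the list median. In the genotype panel filled points lie in the type I interferon list, where the median is 1.59, plus Nr4a2, which 2 lists hold.

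Whether the genotype difference in double-positive cells was unlike that in Tcf7-negative Pdcd1-positive cells was tested as an interaction over 14 profiles. edgeR called 3 of 5763 genes (0.0521%), 2 higher (0.0347%) and 1 lower (0.0174%), with 359 at an unadjusted p under 0.05. None of the 42 tested type I interferon genes was among them, and their median difference was 0.08. For Isg15 the interaction was 0.11 ± 0.49, for Usp18 0.16 ± 0.72 and for Ly6c2 -0.28 ± 0.35, so differences of under about 1 log2 unit could not be resolved for most.

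The 3 called genes are Ccr7, Nr4a2 and Ccl5, given here as CPM over each profile's own total. Ccr7, the lymph node homing receptor, had 188, 83.8, 78.3 and 93.4 CPM in iKO and 28.0, 120 and 233 CPM in control double-positive cells, which overlap. In Tcf7-negative Pdcd1-positive cells it had 15.0, 10.3, 3.24 and 25.0 CPM in iKO and 30.2, 162 and 237 CPM in control, which do not. The interaction was 3.27 ± 0.37. Nr4a2 in Tcf7-negative cells had 392, 443, 302 and 325 CPM in iKO and 473, 451 and 530 CPM in control, the opposite order to that in double-positive cells (interaction 1.90 ± 0.33, edgeR adjusted p = 0.0303). Ccl5, a chemokine of effector T cells, had 5935, 6252, 14955 and 16492 CPM in iKO and 4393, 3673 and 5488 CPM in control Tcf7-negative cells. In double-positive cells Ccl5 overlapped, at 1996, 4679, 3306 and 7998 CPM against 7396, 3198 and 6304 CPM (interaction -1.56 ± 0.28). Ccl5 lost the call when sample 1 or sample 3 of either genotype was left out, and Nr4a2 when iKO sample 3 or control sample 1 was.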

How the data were processed

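The authors deposited 1 matrix of whole-number UMI counts per gene and barcode for each of 8 hashtagged samples, per the file headers. Cell Ranger 7.1.0 and GRCm39 are named in the submitters' processing notes; how introns were counted is not given in the sources used here. Single-cell 3′ libraries were made, per the labels' protocols. Barcodes were filtered and gated as the report states, doublets were scored with Scrublet (scanpy 1.11.5) and kept unless stated, and raw counts were summed per sample and state where a sample had at least 10 cells. Genes were tested with edgeR 4.0.16 under R 4.3.3 (TMM factors, filterByExpr, quasi-likelihood, Benjamini-Hochberg over all genes tested), with the sample as a block between states and none between genotypes. The 12 genes the rule counts were left out of the tests. Shares were compared by exact 2-sided permutation over samples. Alternatives covered DESeq2 1.42.0, size factors, filters, doublets, thinning, stricter thresholds and left-out samples. On simulated counts with 200 genes changed 4-fold, 79.5% were recovered for genotype (2989 genes), 82.5% (4324 genes) and 79% (3840 genes) for the comparisons with Tcf7-negative and with Pdcd1-negative cells, with 4.79%, 4.07% and 4.82% of calls false. Of the 200 changed genes, 163, 165 and 158 in the same order passed the low-count filter and were tested. Of these, 159, 165 and 158 were recovered in the right direction. The simulated counts had a fixed dispersion of 0.1 for every gene and no effect of the sample. Recovery at the spread of the measured counts was not estimated.

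Genes were named by rule: up to 10 per direction with the largest fold among those called, with at least 50 CPM in a group and groups that do not overlap (genotype) or 1 direction in every sample (states), leaving out ribosomal, immunoglobulin and similar genes; genes of the lists could be named too. Il1b, Igkc, Rps10, Plac8, Ms4a4c and Ifi214 were called but lie outside the rule and were named after their values were seen. The cells and gene lists were chosen with earlier results of these data known. Summed profiles weight cells by depth. 2 genes are not reported here.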

Additional observations from a re-analysis of the deposited data

Results flagged for a closer look

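Samples far from the rest of their group were sought in 100 groups of values, and 13 were found. For normally spread, independent values chance flags about 1 in 20 groups, and groups that share cells are not independent. Control sample 3 supplied 7 of them: 27.8% of its Pdcd1-positive gated cells held Tcf7, and its double-positive cells held 794 CPM of Il7r, 138 CPM of Ccl1, 25.9 CPM of Cdkn2a, 423 CPM of Bhlhe40 and 43.2 CPM of Igfbp4. In its Tcf7-negative Pdcd1-positive cells Dapl1 was at 85.9 CPM. Control sample 3 had 15 double-positive cells, and the flags in its double-positive cells share them. Its 25.9 CPM of Cdkn2a was 3 counts.

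iKO sample 3 stood apart in Tcf7-negative Pdcd1-positive cells, of which it had 39, with 48.7 CPM of S1pr1, 68.1 CPM of Slamf6 and 45.4 CPM of Tespa1. iKO sample 2, with the most double-positive cells, was far above the other iKO samples in Ifit1 (214 CPM) and Ifit3 (282 CPM). In Tcf7-positive Pdcd1-negative cells Gzma was at 746 CPM in iKO sample 1.

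In 3 genes the genotype difference was unlike in double-positive and Tcf7-negative Pdcd1-positive cells by edgeR's test of the interaction: Ccr7 by 3.27, Nr4a2 by 1.90 and Ccl5 by -1.56 on the log2 scale.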

How the results depend on the processing

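Genotype calls in double-positive cells (28) numbered 8 to 30 without 1 sample (8 without control sample 1 or 2, 9 without iKO sample 2), 90 with no low-count filter, 86 with at least 20 cells per sample (2 iKO samples and 1 control sample) and 15 with the replicate block. The sample numbers did not pair the genotypes (correlations of same-numbered deviations 0.04, -0.01 and 0.04). Calls against Tcf7-negative Pdcd1-positive cells (641) numbered 371 to 641 without 1 sample, 300 with at least 20 cells, and 391 in iKO and 235 in control samples alone. Calls against Tcf7-positive Pdcd1-negative cells (409) numbered 241 with DESeq2, 195 with at least 20 cells and 86 in control samples alone. The 3 interaction calls became 1 to 9 without 1 sample, 38 with no filter, 8 without doublets, 36 with at least 20 cells and 6 with at least 5, a minimum chosen after seeing the data. The share of gated cells differed by -1.05 to 3.84 percentage points without 1 sample. The share of Pdcd1-positive cells with Tcf7 (iKO minus control -2.33 points) ranged from -7.01 to 1.86 without 1 sample, turning positive at 1.86 and 1.22 without iKO sample 1 or 2 and 0.298 without control sample 3, and was 4.37 with 2 UMIs of each gene. No named gene reversed where it was tested. Named genes that an alternative left untested count neither as kept nor as lost. Without iKO sample 2, 5 genes named for genotype kept the call, 3 lost it and the others were not tested. Of the named-gene results, 45 of 169 for genotype, 0 of 312 and 7 of 309 for the states lost the call. Cells thinned before gating left no sample with 10 cells, so gene tests were not run. The causes were not tested. With 53 control cells and 1 count worth 4.66 to 9.96 CPM, genes at low level could not be resolved.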

Other observations

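Receptors for interferons and cytokines differed between the double-positive cells and their Tcf7-negative Pdcd1-positive neighbours in both directions, with 3 of 15 tested genes higher and 3 lower. Ifngr1, a chain of the interferon gamma receptor, had a median of 630 CPM against 297 CPM and was higher in 7 of 7 samples (log2 fold change 0.92 ± 0.11, edgeR adjusted p = 9.18e-06). Ifnar2, a chain of the type I interferon receptor, had medians of 67.1 and 24.3 CPM and was higher by 1.52 ± 0.20, while Ifnar1, its partner chain, differed by 0.24 ± 0.15 and was not called. Il2rb, which transmits interleukin 2 and 15 signals, fell by 0.68 ± 0.11, and Il21r and Il10ra fell by 0.64 and 0.58. Against Tcf7-positive Pdcd1-negative cells Ifngr1 and Ifnar2 were not called (-0.13 ± 0.11 and 0.01 ± 0.19).

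Genes of glycolysis were lower in double-positive than in Tcf7-negative Pdcd1-positive cells for 8 of 15 tested, with none higher and a median of -0.49. Tpi1, an enzyme that converts triose phosphates, fell by 1.17 ± 0.16 in 7 of 7 samples, from a median of 327 to 110 CPM, and Gapdh fell by 0.72 ± 0.10. Against Tcf7-positive Pdcd1-negative cells 3 of 12 were higher, Gapdh by 0.56 ± 0.11, Eno1 by 0.48 ± 0.14 and Hif1a, a transcription factor of the oxygen response, by 1.01 ± 0.16. Between genotypes 0 of 11 of these genes passed in edgeR within double-positive cells.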
